A study of Sus scrofa with 2 samples.

Results

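Windows of 1 kb on the autosomes in which the 2 libraries of this study had very unequal read depth are described here. They were selected on the number of reads alone. Cytosines listed in both libraries were joined over strands to CpGs, windows with 5 or more such CpGs were kept, and the reads of the low-altitude library were divided by those of the high-altitude library. This ratio was then divided by 0.975, the same ratio over all shared autosomal cytosines, to give the depth ratio. Of 423427 windows, 288 had a depth ratio of 2.5 or more or of 0.4 or less and are the members. In 173 of them (0.0409% of all windows) the low-altitude library had more reads, and in 115 (0.0272%) the high-altitude library had more. Because the depth ratio chose these windows, its values are a description and carry no test.

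The study measured DNA methylation by whole-genome bisulfite sequencing in longissimus dorsi, the long muscle of the back, of female Tibetan pigs. The high-altitude animal, called the highland pig here, ranged freely on the Tibetan plateau at 4000 m on average. The low-altitude animal, the lowland pig, was kept on normal feed on the Chengdu plain at 500 m on average, and its ancestors had lived there for several generations. A single pig per group was sequenced, so altitude, feeding, descent, the individual animal and the library cannot be told apart, and no value has a replicate error. The high-altitude list held 9527968 autosomal cytosines with 91619676 reads and the low-altitude list 9227228 with 87482185 reads, and 6397643 cytosines were in both.

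Bisulfite turns unmethylated cytosine into a base read as thymine, while methylated cytosine is still read as cytosine. Read depth depends in part on the number of DNA copies that map to a stretch of the reference. A segment that is duplicated in an animal, or a family of repeats that the reference holds in fewer copies, collects reads of all its copies in one place. Segments of this kind often differ in copy number between animals of a breed. In bisulfite reads the methylation level of such a place is the mean over the copies, and a copy that carries thymine at a CpG is counted as unmethylated. Copy number itself was not measured here. Only cytosines with 5 or more reads are listed, so a segment with little or no DNA in an animal could not become a member.

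Among members with more low-altitude reads, the median window had 64 high-altitude and 201 low-altitude reads, and the median depth ratio was 2.83. Among members with more high-altitude reads, the medians were 204 and 61 reads, and the median fold, high over low altitude, was 2.88. Of the 2216 CpGs in members, 2179 (98.3%) had a ratio on the same side of 1 as their window, and in 263 of the 288 members every CpG did. Reads of the plus and the minus strand of a CpG come from different molecules. In the 125 members with shared cytosines on both strands, 104 had at least a 2-fold difference in the same direction on each strand. These are the reads that chose the windows, so a shared direction of CpGs and strands is largely fixed by the rule and is given as a description.

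The members closest to the limits show what the rule separates. On chromosome 1, the window from 107030001 to 107031000 had 25 and 61 reads at high and low altitude and was a member. On chromosome 11, the window from 84086001 to 84087000 had 53 and 129 reads, a ratio just under the limit, and was not. At the other limit, the window from 59954001 to 59955000 on chromosome 3 had 277 and 108 reads and was a member, whereas its neighbour from 59956001 to 59957000, with 171 and 67 reads, was not. At the far ends, 34 members had a difference of at least 4-fold.

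**Figure D1:**
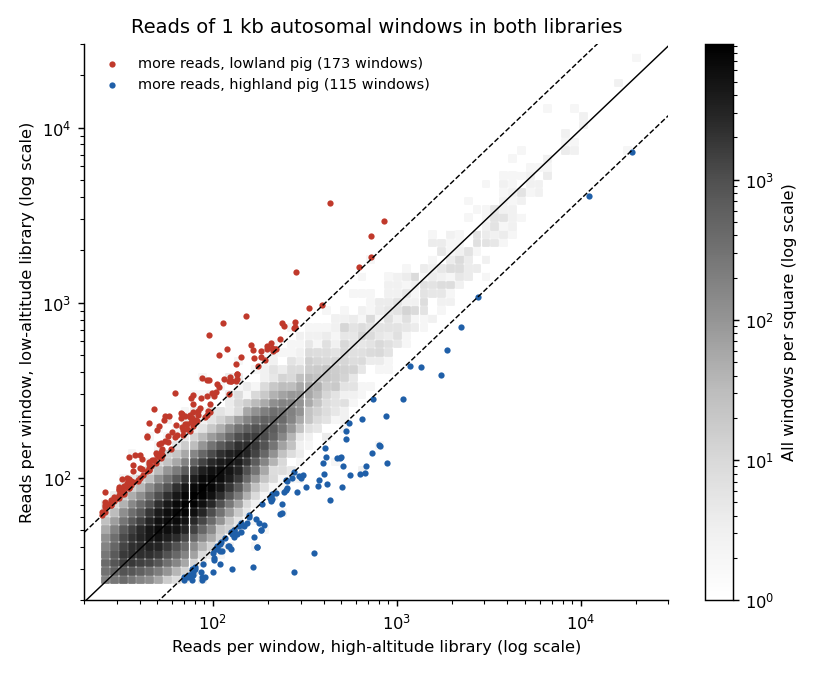
Reads per 1 kb window in the high-altitude library (x axis) and in the low-altitude library (y axis), both on log scales. Grey squares count all autosomal windows, coloured points are the 173 and 115 members, the solid line is equal depth after scaling and the dashed lines are depth ratios of 2.5 and 0.4. The deepest member had 18915 high-altitude and 7279 low-altitude reads, and windows beyond the axes, none of them members, are not drawn.

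In most members one pig had a typical depth and the other had far more reads. The median over all windows was 9.86 reads per shared cytosine for the highland pig and 9.62 for the lowland pig, and depths between 0.667 and 1.5 times that median are called typical here. In 172 of the 288 members the shallower library was typical and the deeper library above 1.5 times the median. Of these, 98 had more reads in the lowland pig, with median depths of 2.85 times the typical value in the deeper and 0.956 times in the shallower library. The other 74 had more reads in the highland pig, with 3.10 and 0.945 times the typical depth. In 43 members both libraries were above 1.5 times the typical depth. In 59 the deeper library was above and the shallower below the typical range, and in 14 the deeper library was typical and the shallower below. The minimum of 5 reads for a listed cytosine keeps the shallower library from falling further, so low depths are under-represented.

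Members also had more reads in total than other windows, which is partly fixed by the rule. Each shared cytosine has at least 5 reads in the shallower library, so a ratio beyond the limits raises the total. Windows with at least 500 reads over both libraries made up 0.718% of all windows and 25.3% of members (73 of 288). The median number of shared CpGs was 6 in members and in all windows, but 19.1% of members and 11.8% of all windows had 10 or more. Members within 2 Mb of the end of the listed part of a chromosome were 25 (8.68%), against 3.11% of all windows.

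The members were spread unevenly over the chromosomes. Chromosome 2 held 63 of them, 52 with more reads in the lowland pig, among 25250 windows. Chromosome 12 held 16 among 11357 windows and chromosome 10 held 25 among 19816. Chromosome 8 had 20 members with more high-altitude reads and 2 with more low-altitude reads. Chromosomes 11 and 18 had 2 and 1 members among 19284 and 14333 windows. Joined across gaps of up to 100 kb, a distance chosen after the values were seen, 119 members (41.3%) fell into 13 clusters of at least 5 members of the same direction, while 127 members stood alone.

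**Figure D2:**
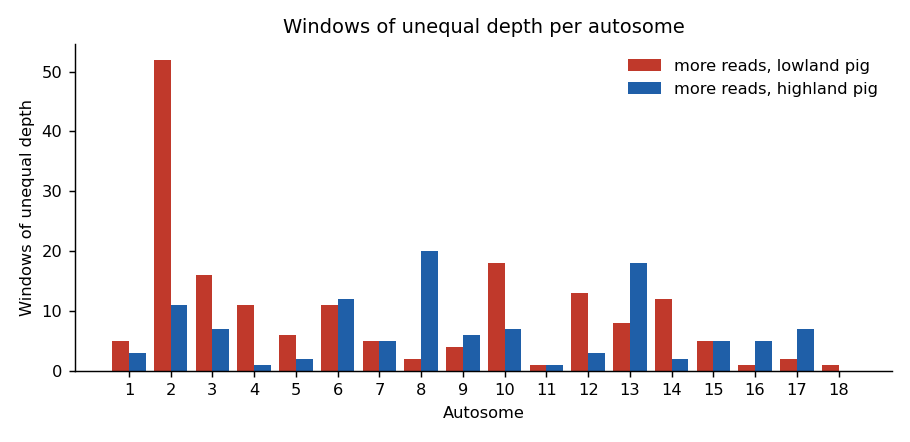
Number of member windows on each of the 18 autosomes, with members that had more reads in the lowland pig in red and those with more reads in the highland pig in blue. Chromosome 2 holds 52 of the 173 red windows, and chromosomes 8 and 13 hold 20 and 18 of the 115 blue windows.

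The stretch with most members in the high-altitude direction lay on chromosome 8, from 70559001 to 70595000. All 20 of its windows with 5 or more CpGs were members. Together they had 8878 high-altitude and 1978 low-altitude reads, a 4.38-fold difference (95% exact binomial interval 4.17 to 4.60, which covers counting error only). The fold of single windows ran from 2.76 to 9.38. The lowland pig had 1.08 times the typical depth here and the highland pig 4.74 times. The 11 windows in between with 1 to 4 shared CpGs, which the rule leaves out, had 1579 and 376 reads, a 4.09-fold difference, and all 11 were at least 1.5-fold deeper in the high-altitude library. Over the whole stretch, 187 cytosines were listed only in the highland pig and none only in the lowland pig, beside 222 listed in both. Within 50 kb of the stretch only 2 other windows held a shared cytosine. They lay directly before and after it, with depth ratios of 0.247 and 0.547. The closest windows with a difference below 1.5-fold lay 54 kb before and 166 kb after the stretch, with depth ratios of 1.23 and 0.855. Where the unequal depth ended on either side was therefore not measured.

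Methylation of this stretch differed as well. The level was 56.3% in the highland pig and 67.1% in the lowland pig over all reads of the 20 members. It was higher in the lowland pig in 19 of the 20 windows, with a median difference of 11.3 points and a range from −2.48 to 32.5 points. The library with more reads thus had the lower level. When the low-altitude reads were scaled to the high-altitude total and subtracted, 53.1% of the remaining high-altitude reads were methylated. This value assumes that the subtracted part of the highland reads had the lowland level, which was not tested.

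The largest cluster lay on chromosome 2, from 158953001 to 159134000, and had more reads in the lowland pig. Its 32 members had 2964 reads at high and 9273 at low altitude, a depth ratio of 3.21, with single windows from 2.54 to 4.77. Of the 44 windows with 5 or more CpGs in these 181 kb, 43 had a ratio of at least 1.5. Of the 74 windows with fewer CpGs, 70 had, and their median ratio was 2.71. The longest runs of members within it were 10 windows from 159090001 to 159116000, with 1005 and 2886 reads, and 7 windows from 158988001 to 159002000, with 607 and 1952 reads. In both runs the highland pig was at the typical depth, 1.06 and 0.977 times, and the lowland pig at 3.12 and 3.22 times. The level of methylation over the 32 members was close in both pigs, at 63.7% and 63.4%. Of them, 18 were higher and 14 lower in the lowland pig.

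**Figure D3:**
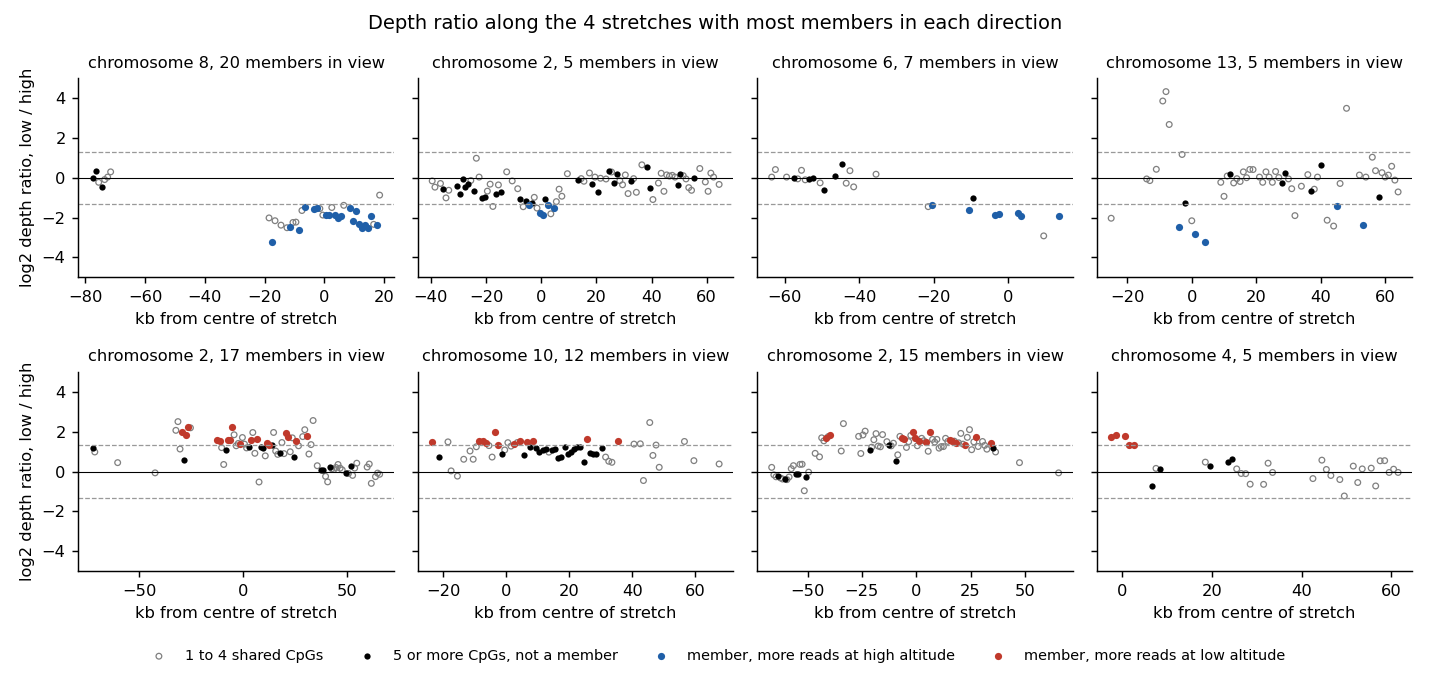
Log2 depth ratio, low over high altitude, of windows along the 4 stretches with most members in each direction, plotted against the distance in kb from the centre of the stretch. Blue and red points are members, black points other windows with 5 or more CpGs, open circles windows with 1 to 4 shared CpGs, and dashed lines the limits of 2.5 and 0.4. On chromosome 8 all windows inside the stretch lie below 0. In the lower row the 2 panels of chromosome 2 show a block of windows nearly all above 0. Its right edge is in the first panel and its left edge in the other.

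Other stretches were shorter or had raised depth in both pigs. On chromosome 10, 9 members from 22234001 to 22252000 had 2084 and 5705 reads, a ratio of 2.81, at 2.14 times the typical depth in the high-altitude and 5.99 times in the lowland pig. Their level was 41.5% and 42.4%. On chromosome 4, 5 members in the 6 kb from 50257001 to 50263000 had 1359 and 3733 reads and a ratio of 2.82, with a high level of 78.9% and 76.9%. The nearest measured window to its right had 10 CpGs and a ratio of 0.596, thus more reads in the highland pig, and the next one, with 2 CpGs, had a ratio of 1.12. On its left no cytosine was listed over 64 kb, so that edge was not measured.

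In the high-altitude direction, 4 members from 17081001 to 17089000 on chromosome 6 had 3556 and 977 reads, a 3.55-fold difference, with 13.4 and 3.76 times the typical depth. On chromosome 2, 5 members from 13760001 to 13770000 had 1347 and 424 reads, a 3.10-fold difference. The steepest stretch lay on chromosome 13, from 204742001 to 204751000. Its 3 members had 1671 and 239 reads, 6.82-fold more in the highland pig (95% exact binomial interval 5.95 to 7.84). Within 10 kb of it, 3 windows with 1 to 4 CpGs differed in the opposite direction, with 38 reads at high and 412 at low altitude together, a ratio of 11.1. Opposite changes of depth thus lay side by side at this place.

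Single windows went further. Among members with at least 10 CpGs, the largest ratio was on chromosome 3, from 142904001 to 142905000, where 17 CpGs had 433 high-altitude and 3727 low-altitude reads, a ratio of 8.83. The difference was mainly on the minus strand, with 308 and 3523 reads, whereas the plus strand had 125 and 204 reads, a ratio of 1.67. A single CpG held 1100 of the lowland reads. Its 5 measured neighbours within 3 kb had a ratio of 1.30 together. On chromosome 6, the window from 26519001 to 26520000 had 283 and 1502 reads, a ratio of 5.44. On chromosome 2, the window from 100163001 to 100164000 had 54 and 213 reads at its 10 shared CpGs, a ratio of 4.05. The next, from 158993001 to 158994000 in the large cluster of the same chromosome, had 93 and 361 reads and a ratio of 3.98. The 4 such windows with most excess in the highland pig lay in the stretches on chromosomes 13 and 8, led by 889 against 122 reads from 204747001 to 204748000 on chromosome 13, a 7.10-fold difference.

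Windows with 1 to 4 shared CpGs could not become members, and their reads were not used by the rule. Those directly next to a member leaned the same way. Next to members with more low-altitude reads, 162 such windows had a median ratio of 1.87 (95% interval of the median over windows 1.64 to 2.05), and 97 (59.9%) had a ratio of at least 1.5, against 8.32% of all 1084814 sparse windows. Next to members with more high-altitude reads, 93 had a median ratio of 0.626 (0.543 to 0.780), and in 49 (52.7%) the ratio was at most 1/1.5, against 8.3% of all. DNA fragments that span the border of neighbouring windows add reads to both, and fragment length was not measured here. At 2 to 5 kb the medians were 1.23 (460 windows) and 0.821 (247 windows), and at 21 to 50 kb they were 1.03 and 0.963, beside 1.03 for all sparse windows. Without the 13 clusters, the medians directly next to members were 1.44 and 0.806. The intervals of the medians take windows as independent, which windows of the same cluster are not, so they are too narrow.

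**Figure D4:**
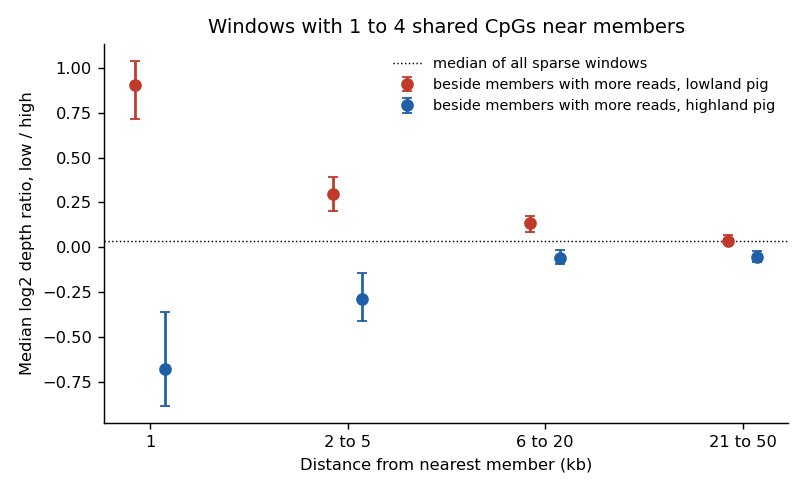
Median log2 depth ratio, low over high altitude, of windows with 1 to 4 shared CpGs, by distance in kb from the nearest member, with 95% intervals of the median over windows. The intervals take windows as independent. Red stands for members with more low-altitude reads, blue for members with more high-altitude reads, and the dotted line is the median of all sparse windows. Both series approach the dotted line from 1 kb (ratios 1.87 and 0.626) to 21 to 50 kb.

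Cytosines that only one pig listed were mostly those of the deeper pig. A cytosine needs 5 reads to be listed, so this is largely fixed by the rule and is given as a description. In members with more low-altitude reads, 1229 of the listed cytosines (42.6%) were in the low-altitude list only and 131 (4.54%) in the high-altitude list only. In all windows the shares were 17.0% and 19.2%. In members with more high-altitude reads, 595 (33.4%) were in the high-altitude list only and 76 (4.26%) in the low-altitude list only. The cytosines listed only by the deeper pig had a median depth of 9 and 10 reads in the 2 directions, against 6 reads in all windows. The most uneven listing was in the window from 100163001 to 100164000 on chromosome 2. Beside its 10 shared cytosines it held 141 that only the lowland pig listed, with a median depth of 14 reads and a mean level of 73.0%. An absent cytosine has either fewer than 5 reads or no methylated call above background, and these cannot be told apart.

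The split of reads into methylated and unmethylated was not used to choose members. Members were less methylated than other windows in both pigs. Their median level was 65.2% at high and 65.1% at low altitude, against 77.6% and 76.5% in all windows. The mean of the levels of both pigs was between 40 and 60% in 89 members (30.9%) and in 10.3% of all windows. This mean was above 80% in 54 members (18.8%) and in 39.5% of all windows. Among the 43 members with raised depth in both pigs, the 28 with more lowland reads had medians of 49.1% and 48.3%, and the 15 with more highland reads 60.8% and 55.6%. Within windows the levels of single CpGs also varied slightly more, with a median SD of 16.1 points over CpGs in members and 14.3 in all windows.

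The level was close in both pigs in most members. The median difference, low minus high altitude, was −1.49 points in members with more low-altitude reads and 0.586 points in those with more high-altitude reads, beside −0.960 points in all windows. The median of the second group rested on the clusters. Without them it was −4.17 points over 60 windows. The size of the difference, without sign, had a median of 6.32 points in members and 5.38 in all windows. Levels of both pigs had a correlation of 0.809 across the 288 members, which share 2 libraries and partly the same stretches, and of 0.767 across all windows.

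A two-sided Fisher's exact test on the reads of each window, with Benjamini-Hochberg adjustment over all 423427 windows, compared the 2 libraries and not the altitudes. A call needed both an adjusted p under 0.05 and levels that were 20 or more points apart. Of the members, 10 (3.47%) were called, against 0.514% of all windows. Members have more reads, and among all windows with at least 200 reads 0.765% were called. Among windows with at least 300 and under 500 reads, 6 of 50 members (12%) and 0.613% of all windows were called. At 500 reads or more, 3 of 73 members (4.11%) and 0.461% of all windows were. With at least 200 and under 300 reads, 1 of 54 members (1.85%) and 0.816% of all windows were called. Below 200 reads no member was called, with 11 members under 100 reads, 57 from 100 to under 150 and 43 from 150 to under 200, where 0.223%, 0.412% and 0.598% of all windows were. Of the 10, 7 were higher in the lowland pig, where the background is 0.199% of windows, and 3 lower, where it is 0.315%. All 5 calls among members with more high-altitude reads were higher in the lowland pig, 3 of them in the stretch on chromosome 8 and 2 on chromosome 13. Reads of neighbouring CpGs share molecules, so these p-values are too small. With 1 window counted for each joined stretch, 5 of 200 were called.

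Of the called members, that with the largest rise spanned 147844001 to 147845000 on chromosome 13, where 35.8% of 288 highland reads and 72.3% of 83 lowland reads were methylated (Fisher's exact test, adjusted p = 1.41e-05). Its unequal depth came from a part of the window, since 5 of its 10 CpGs had more highland reads. It lies in a cluster of 8 members from 147798001 to 147860000, with 2337 and 776 reads. All 8 were higher in the lowland pig, by 4.78 to 36.5 points, and 2 of them were called. The pig with more reads had the lower level here, as in the stretch on chromosome 8. There the window from 70585001 to 70586000 had 41.6% of 308 reads and 74.0% of 104 reads (Fisher's exact test, adjusted p = 2.81e-05).

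The opposite pairing occurred on chromosome 15, from 131216001 to 131217000. This window had 113 reads at high and 769 at low altitude, a ratio of 6.98. At its 5 shared CpGs (7 cytosines) the level was 47.8% and 83.9%, higher in the pig with more reads (Fisher's exact test, adjusted p = 8.75e-12). Another 45 cytosines of the window were listed only by the lowland pig, with a mean level of 67.1%. Its 5 measured neighbours within 3 kb also had unequal depth, with a ratio of 5.47, but levels of 78.3% and 73.3%. On chromosome 3, the window from 5424001 to 5425000 had 165 and 538 reads and rose from 55.2% to 77.0% (Fisher's exact test, adjusted p = 0.000248).

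Falls in level were called in 3 members, each with more reads in the lowland pig. On chromosome 12, the window from 51102001 to 51103000 had 66.0% of 94 reads and 33.8% of 240 reads (Fisher's exact test, adjusted p = 0.000297). Also on chromosome 12, the window from 50781001 to 50782000 had 54.7% of 75 reads and 28.4% of 229 reads (Fisher's exact test, adjusted p = 0.0216). On chromosome 2, the window from 159001001 to 159002000 had 93.2% of 44 reads and 63.2% of 171 reads (Fisher's exact test, adjusted p = 0.0148). This last window is 1 of the 32 members of the large cluster and the only one of them that was called.

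**Figure D5:**
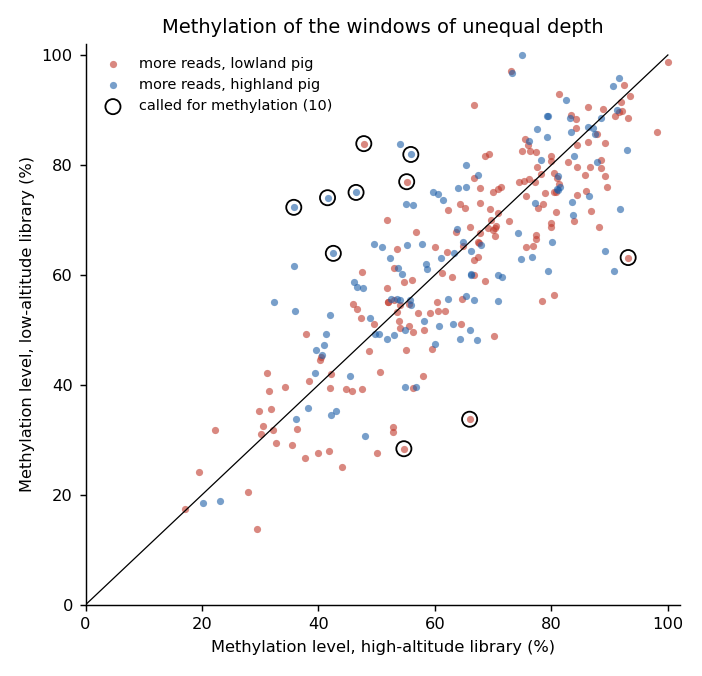
Methylation level in percent of the 288 members in the high-altitude (x axis) and in the low-altitude library (y axis). Red points had more reads in the lowland pig, blue points more in the highland pig, black circles mark the 10 called windows and the line is equal level. Most points lie near the line, and 7 of the 10 circled windows lie above it.

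Clusters differed in how level and depth went together. Levels of clusters were compared over their members only. Besides that on chromosome 8, 6 clusters of at least 5 members had more high-altitude reads. In 2 of them, on chromosome 13 from 147798001 and on chromosome 3 from 59939001, all members were higher in the lowland pig. In 1, on chromosome 17 from 69496001 to 69657000, all members were lower. The members on chromosome 3 had 56.1% and 61.3%. Those on chromosome 17 had 48.1% and 42.6%, with 13778 and 4775 reads. No member of these last 2 clusters was called. Their median difference, low minus high altitude, was 3.26 points on chromosome 3 and −3.77 points on chromosome 17. In all windows the median difference without sign was 5.38 points, so both were of ordinary size. Among members of these clusters, the deeper pig thus had a lower level, a higher level or one that differed by little. Whether level and depth are related was not tested.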

How the data were processed

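The authors deposited 1 list of cytosines per library. Per the file headers, each line holds 2 read counts (methylated and unmethylated), a fraction for the methylation level, a p-value and a corrected p-value. The submitters' processing notes name Bismark 0.12.5. Build, filters and the handling of duplicates were not given in the sources used here. All listed cytosines were in CpG context, with at least 5 reads, at least 1 methylated read and a corrected p-value of at most 0.0498. Because the build was not given, no gene or sequence was assigned. Positions ran past the last gene of the Sscrofa11.1 gene table on 17 of 18 autosomes, which alone cannot tell whether the build differs. Coordinates are printed as listed by the authors and should not be read as Sscrofa11.1 positions.

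The counts were used for depth ratios and levels, without correction for non-conversion. Windows were fixed 1 kb bins. Ratio intervals are exact binomial, take reads as independent and cover counting error only. PCR copies could not be removed. Windows were tested with Fisher's exact test (own code on numba 0.67.0, checked against scipy 1.17.1 and tested on simulated data). Named windows are the 4 most extreme ratios per direction with at least 10 CpGs, the 4 stretches with most members per direction joined across at most 5 kb, the 3 largest called rises and falls, and the windows at the limits. Others were chosen after their values were seen. Members and lists were chosen with earlier results of these data known. Alternatives covered depth, CpG number, window size, limits, centring, strand and clusters. Chromosome X, unplaced scaffolds and mitochondrial DNA were not analysed here.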

Additional observations from a re-analysis of the deposited data

How the results depend on the processing

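Of 62 recomputed values, 32 stayed within 1.5 times a count or within the interval of a median, and 30 did not. The counts of members with more low- and more high-altitude reads (173 and 115) were 51 and 35 with at least 10 reads per cytosine, 31 and 24 with at least 10 CpGs, 62 and 48 at limits of 3 and 1/3, and 302 and 200 with the median ratio of CpGs, which shared 243 windows with the 288 members. Without clusters they were 109 and 60. The count of members with more high-altitude reads was 76 on the plus strand and 76 with 1 window per stretch, and that with more low-altitude reads was 103 on the minus strand. The number called (10) was 3 with at least 10 reads per cytosine, 4 with at least 10 CpGs, 4 without clusters, and 5 on the minus strand, with 1 window per stretch and where levels had to be 30 points apart. The median difference in level of members with more low-altitude reads (−1.49 points) was 0.0970 with at least 10 reads, 0.443 with at least 10 CpGs and −0.204 with the median ratio of CpGs. In members with more high-altitude reads (0.586 points) it was 3.61 in 2 kb windows, 3.77 at limits of 3 and 1/3, −2.37 on the minus strand and −4.17 without clusters. The sign of both medians therefore depends on the setting. Sparse windows next to members had median ratios of 2.43 and 0.440 at limits of 3 and 1/3, and 1.44 and 0.806 without clusters. The alternatives with 1 window per stretch and without clusters were chosen after seeing the data. The causes of these shifts were not tested. No paired analysis was possible because each group held 1 pig, and no pig could be left out.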

Other observations

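In some clusters nearly all windows leaned the same way over long distances, though by varying amounts, and in others they did not. In the 60 kb from 22219001 to 22279000 on chromosome 10, all 35 windows with 5 or more CpGs had more reads in the lowland pig. Of these, 34 had a ratio of at least 1.5, although only 12 reached 2.5. Of the 17 windows with fewer CpGs there, 16 had more low-altitude reads and 13 a ratio of at least 1.5. In the 48 kb from 62842001 to 62890000 on chromosome 2, 28 of 28 windows with fewer CpGs had more low-altitude reads, with a median ratio of 2.19. By contrast, in the 161 kb from 69496001 to 69657000 on chromosome 17, 34 of 49 windows with 5 or more CpGs had more high-altitude reads and their median fold, high over low altitude, was 1.10. Of these 49, 17 were at least 1.5-fold deeper in the highland pig, the 5 members included. In the 53 kb from 100118001 to 100171000 on chromosome 2, 1558 cytosines were listed by the lowland pig only and 196 by the highland pig only, beside 963 in both, and the 35 windows with 5 or more shared CpGs had a median ratio of 1.38. Of these 35, 25 had a ratio above 1, and 1 was a member of the opposite direction, from 100131001 to 100132000, with 2769 and 1070 reads, 2.52-fold more in the highland pig. These clusters were chosen after their values were seen.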
